A study of Mus musculus with 2 samples.

Results

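Mitochondrial DNA carried 56 of the 2054 peaks in a CUT&Tag study of the transcription factor STAT5, 36 of 1217 in cells with intact Tert and 20 of 837 in Tert knockout cells. The peaks were chosen by 1 criterion, that the deposited lists place them on chromosome MT, so their presence on mitochondrial DNA is not itself a result. In CUT&Tag an antibody, here against STAT5, guides a transposase that cuts and tags the DNA near the bound protein. The cells were a primary line of interstitial cells of the mouse aortic valve, which make and maintain the matrix of the leaflets, of genotype Tert+/+ or Tert-/-, with 1 library each. Tert encodes the catalytic subunit of telomerase. Both genotypes spent 7 days in osteogenic medium, which was MEM alpha with nucleosides, 10% FBS, P/S, 10 mM glycerol phosphate, 100 nM dexamethasone and 50 µM ascorbic acid 2-phosphate. An untreated group and a library made with another antibody were not analysed here. With 1 library per genotype no difference between them could be tested, and a list of peaks does not measure marker genes, so the cell type was not checked.

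The mouse mitochondrial genome is a small circle present in many copies per cell. It encodes 13 proteins of the respiratory chain, 2 ribosomal RNAs and 22 transfer RNAs, and is read from a non-coding control region, where replication of the heavy strand also starts. It is packed by the protein TFAM rather than by histones, and open, abundant DNA of this kind is a familiar source of reads in transposase assays. Its code supplies subunits of complex I (the mt-Nd genes), complex III (mt-Cytb), complex IV (the mt-Co genes) and complex V (mt-Atp6 and mt-Atp8). Both STAT5 and TERT are nuclear proteins for which a mitochondrial pool has also been reported.

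Peaks lay along most of the mitochondrial map in both genotypes. In Tert+/+ cells they touched 11 of the 13 protein-coding genes, 2 of the 2 ribosomal RNA genes and 8 of the 22 tRNA genes. In Tert-/- cells they touched 7, 2 and 7. Between the first base of mt-Tf and the last of mt-Tp (MT, 1 to 15422, mm10) the lists placed 35 and 19 peaks, or 2.27 and 1.23 per kb, against 0.437 and 0.302 nuclear peaks per Mb. Mean peak width was 87.0 bp ± 10.1 (SD, 36 peaks) in Tert+/+ and 230.4 bp ± 73.5 (SD, 20 peaks) in Tert-/-. Nuclear peaks differed in the same way, with means of 84.8 bp (1181 peaks) and 239.0 bp (817 peaks). The width difference was thus a trait of the whole lists, and covered shares carry it. Over all deposited peaks, Tert-/- covered 4293 bp (27.8%) of the gene-bearing stretch and Tert+/+ 3019 bp (19.6%). The direction turned when only peaks with a p-value under 0.01 were kept, with 10.2% in Tert-/- and 11.1% in Tert+/+.

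**Figure D1:**
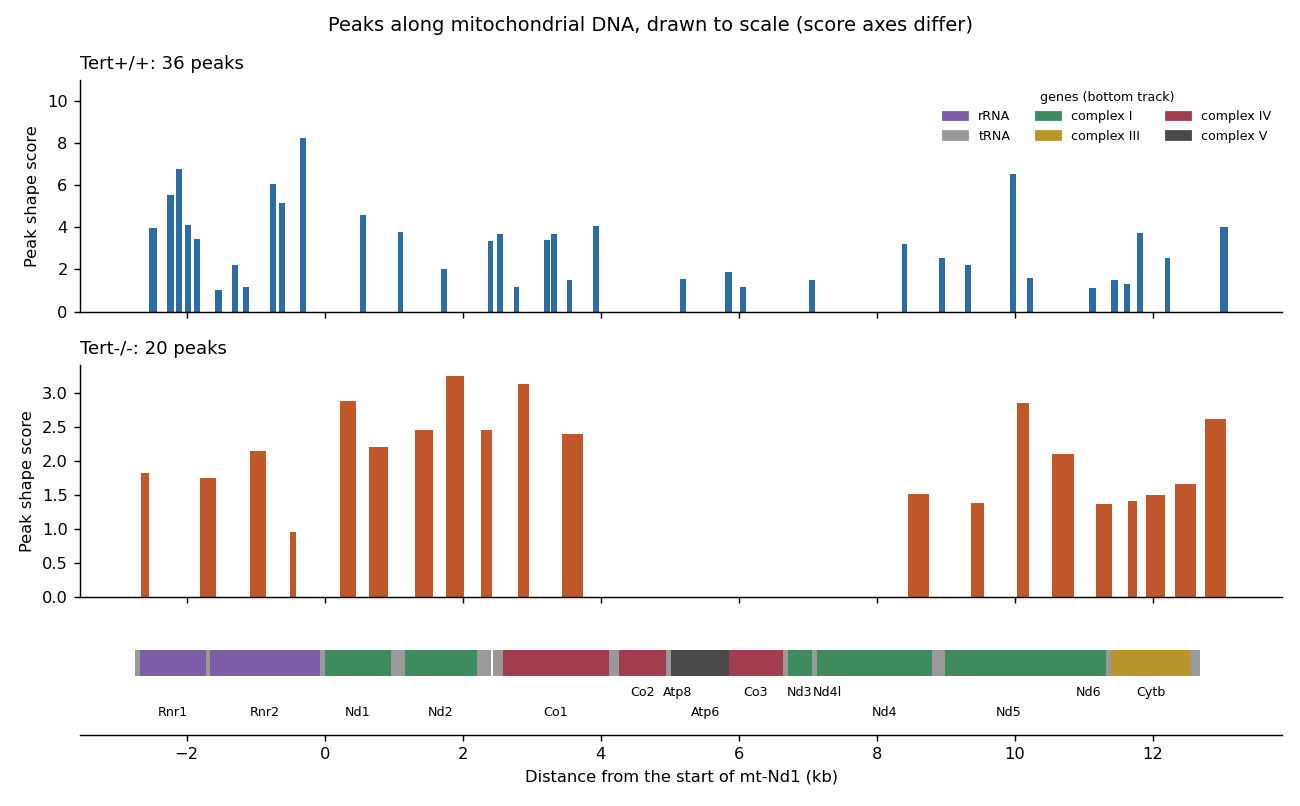
Peaks along mitochondrial DNA in Tert+/+ (top, 36 peaks) and Tert-/- cells (middle, 20 peaks). Each bar spans a peak to scale, its height is the authors' peak shape score, the horizontal axis is the distance from the start of mt-Nd1 in kb, and the bottom track shows the genes. Of the 5 tallest Tert+/+ bars 4 stand over the ribosomal RNA genes, and the Tert-/- panel is empty from the 3′ part of mt-Co1 to mt-Nd4.

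The ribosomal RNA stretch before mt-Nd1 held 4 of the 5 highest-scoring mitochondrial peaks of the Tert+/+ list, the other being in mt-Nd5. From mt-Rnr1, the small-subunit rRNA gene (MT, 70 to 1024), to mt-Rnr2, the large-subunit rRNA gene (1094 to 2675), there were 11 Tert+/+ peaks and 4 Tert-/- peaks. A deposited p-value under 0.05 was reached by 9 of the 11, where 32.3% of the whole Tert+/+ list did so, and by 3 of the 4, against 4.78% of the Tert-/- list. A p-value under 0.01 was reached by 8 of the 11 (18.5% of the list) and by 0 of the 4 (1.55% of the list). Among mitochondrial peaks outside the stretch, a p-value under 0.05 was reached by 16 of 25 in Tert+/+ and 11 of 16 in Tert-/-. One under 0.01 was reached by 13 of these 25 and 8 of these 16. The deposited score, a measure of likeness to a model peak shape, is a fixed transform of this p-value and was read only within a list. Its median over the Tert+/+ peaks was 4.13 in the stretch and 2.53 over the other 25 mitochondrial peaks, whereas in Tert-/- it was 1.78 in the stretch and 2.30 over the other 16. By median score and by p-values under 0.01, the order of the stretch relative to other mitochondrial DNA was thus opposite in the 2 libraries. By p-values under 0.05 the share was higher in the stretch in both. The Tert-/- values rest on 4 peaks, and the difference was not tested.

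The highest-scoring mitochondrial peak of Tert+/+ cells lay in mt-Rnr2 at 2385 to 2475 (score 8.21, p-value 1.07e-16, rank 25 of 1217). In the same gene, peaks at 1964 to 2049 and at 2093 to 2178 had scores of 6.03 and 5.16. The remaining 3 Tert+/+ peaks of mt-Rnr2, between 1166 and 1657, were low, with scores from 1.05 to 2.21. In mt-Rnr1 the 5 Tert+/+ peaks had scores of 3.98, 5.52, 6.79, 4.13 and 3.46 in map order, and together they covered 49.2% of the gene. All 5 scored above the median of the mitochondrial Tert+/+ peaks, 3.29, the last of them only slightly. Centres of neighbouring Tert+/+ peaks in the stretch were 127 to 390 bp apart, with a median of 211 bp over 10 spacings. The 4 closest were 127, 127, 129 and 141 bp.

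Tert-/- peaks of the ribosomal stretch were fewer and of middle or low rank among that library's mitochondrial peaks. They lay at 94 to 200 in mt-Rnr1 (score 1.82), at 946 to 1171 across mt-Rnr1, the tRNA gene mt-Tv and mt-Rnr2 (1.75), and at 1662 to 1897 and 2250 to 2333 in mt-Rnr2 (2.14 and 0.954). The last of these was the weakest mitochondrial peak of the Tert-/- list (p-value 0.170, rank 581 of 837). Covered shares of mt-Rnr1 were 49.2% in Tert+/+ and 19.5% in Tert-/-, and those of mt-Rnr2 were 33.6% and 25.2%.

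The next stretch of the map, from mt-Nd1 to mt-Co1 (MT, 2751 to 6872), held the strongest block of Tert-/- peaks. All 7 Tert-/- peaks there had a p-value under 0.05 and 6 had one under 0.01, while 2 of the other 13 mitochondrial peaks of this library had a p-value under 0.01. Their scores ran from 2.20 to 3.25, with a median of 2.46 against 1.66 over the other 13. In Tert+/+ cells the same stretch held 10 peaks, with scores from 1.16 to 4.60. A p-value under 0.05 was reached by 8 of them and one under 0.01 by 7. Among the other 26 mitochondrial Tert+/+ peaks, 17 and 14 did so. The Tert+/+ median was 3.55 in the stretch and 2.54 over these 26, so a higher median there was common to both libraries.

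mt-Nd1 (MT, 2751 to 3707) encodes a membrane-arm subunit of complex I. It carried 1 Tert+/+ peak, at 3262 to 3341 scoring 4.60 (p-value 2.13e-06), and 2 Tert-/- peaks, at 2965 to 3203 (score 2.89, p-value 0.00195) and 3390 to 3672 (2.20, p-value 0.0138). The Tert+/+ peak fell in the gap between the Tert-/- peaks and overlapped neither. Peaks covered 8.36% of the gene in Tert+/+ and 54.5% in Tert-/-.

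mt-Nd2 (MT, 3914 to 4951), a further complex I subunit gene, held the highest-scoring mitochondrial peak of Tert-/- cells. That peak lay at 4511 to 4768, scoring 3.25 (p-value 0.000578, rank 3 of 837). A second Tert-/- peak at 4061 to 4320 scored 2.45. The single Tert+/+ peak of the gene, at 4431 to 4516, scored 2.03 (p-value 0.0210, rank 296 of 1217) and met the strong Tert-/- peak over 6 bp. This gene, at the top of the mitochondrial order in the knockout list, was thus in place 24 of 36 in the Tert+/+ list.

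Between the reading frames the peaks fell on tRNA genes. In Tert+/+ cells 3 peaks touched tRNA genes and no other gene: 1 over mt-Tq and mt-Tm before mt-Nd2 (3812 to 3890, score 3.77), 1 over mt-Tn and mt-Tc (5115 to 5194, score 3.34) and 1 over mt-Ts2 and mt-Tl2 before mt-Nd5 (11654 to 11737, score 2.54). In Tert-/- cells 1 peak did so, over mt-Tw, mt-Ta and mt-Tn (5008 to 5178, score 2.46). The cluster from mt-Tw to mt-Ty (MT, 4950 to 5326) lies between mt-Nd2 and mt-Co1 and contains the origin of light-strand replication, in the 32 bp between mt-Tn and mt-Tc (5160 to 5191). All 32 bp lay within the Tert+/+ peak and 19 bp within the Tert-/- peak. The cluster was covered to 41.4% in Tert+/+ and 45.4% in Tert-/-, and its peaks at mt-Tn shared 64 bp with centres 44 bp apart, the closest of any overlapping pair.

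mt-Co1 (MT, 5328 to 6872), the gene of the catalytic subunit of cytochrome c oxidase, was touched by 6 Tert+/+ and 2 Tert-/- peaks. Tert+/+ scores were 3.69, 1.16, 3.42, 3.70, 1.50 and 4.04 in map order, the first from a peak with 3 bp in the gene and most of its length over mt-Ty. The Tert-/- peaks lay at 5556 to 5702 (score 3.14, p-value 0.000857, rank 4) and 6181 to 6492 (2.39, p-value 0.00832). The latter contained the whole of a weak Tert+/+ peak at 6255 to 6328 (score 1.50, p-value 0.0673), the 1 case of full containment on mitochondrial DNA.

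From the 3′ part of mt-Co1 to mt-Nd4 lay a stretch called sparse here because it held no Tert-/- peak. In Tert+/+ the part from mt-Co2 to mt-Nd4l had 1.27 peaks per kb and was covered to 11.5%. That was close to mt-Nd1 to mt-Nd2 in the same library, with 1.36 peaks per kb and 11.1%. The widest stretch without a Tert-/- peak ran from 6493 to 11192, 4700 bp, where the median gap between neighbouring Tert-/- peaks was 352 bp. It contained 6 protein-coding genes in full, namely mt-Co2, mt-Atp8, mt-Atp6, mt-Co3, mt-Nd3 and mt-Nd4l. The 3 widest gaps of the Tert+/+ peaks, of 1256, 1173 and 919 bp, all lay within it, where the Tert+/+ median gap was 218 bp.

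Inside that stretch lay 6 Tert+/+ peaks, with a median score of 1.71, below the 3.29 of all 36 mitochondrial peaks and above the 1.20 of the whole Tert+/+ list. A p-value under 0.05 was reached by 3 of the 6 (32.3% of the list), at 6635 to 6716 in mt-Co1 (score 4.04), at 8546 to 8647 across mt-Atp6 and mt-Co3 (1.86) and at 11112 to 11190 in mt-Nd4 (3.23). The other 3 were over mt-Atp8 and mt-Atp6, the ATP synthase subunits (7890 to 7985, score 1.56), over mt-Co3 (8772 to 8852, score 1.18) and across mt-Nd3 and mt-Tr (9772 to 9855, score 1.49). mt-Co2 and mt-Nd4l had 0 peaks in both lists. The lists end at p-values of 0.199 and 0.1999. A gene without a peak thus had none with a p-value under the limit of its list, which does not mean that it had no signal.

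At the end of the sparse stretch, mt-Nd4 (MT, 10167 to 11544) had 1 peak per library in its 3′ part, the Tert+/+ peak at 11112 to 11190 just named and, 2 bp further on, the Tert-/- peak at 11193 to 11507 that closes the gap (score 1.51, p-value 0.0653). mt-Nd5 (MT, 11742 to 13565), the longest mitochondrial gene, encodes the distal membrane subunit of complex I and was touched by 3 peaks in each list. In Tert+/+ the scores were 2.23, 6.52 and 1.62, and in Tert-/- they were 1.37, 2.84 and 2.10. The strongest mt-Nd5 peak of each library stood near the middle of the gene, at 12675 to 12758 in Tert+/+ (p-value 3.41e-11, rank 41) and at 12776 to 12959 in Tert-/- (p-value 0.00223, rank 6), without overlapping each other.

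mt-Nd6 (MT, 13552 to 14070), the protein gene read from the opposite strand to the others, was touched by 1 Tert+/+ peak of low score (13828 to 13923, score 1.13) and 2 Tert-/- peaks (scores 2.10 and 1.36), both of which also reached a neighbouring gene. mt-Cytb (MT, 14145 to 15288), the cytochrome b gene of complex III, was touched by 4 peaks in each list, 3.50 per kb. Tert+/+ scores were 1.50, 1.32, 3.75 and 2.53, the highest at 14520 to 14604 (p-value 8.95e-05). Tert-/- scores were 1.36, 1.40, 1.49 and 1.66, of which the last had a p-value under 0.05 (0.0485). The Tert-/- peak with 1.36 had 8 bp in mt-Cytb and lay mainly over mt-Nd6 and mt-Te. mt-Cytb was the most fully covered protein-coding gene in Tert-/-, at 57.2%, and was covered to 29.9% in Tert+/+.

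The control region, which begins after mt-Tp at 15423, held 1 peak in each library, and both were high in their list. Among mitochondrial peaks alone, they stood in place 10 of 36 in Tert+/+ and 5 of 20 in Tert-/-. The Tert+/+ peak, at 15719 to 15832, scored 3.998 (p-value 3.19e-05, rank 97 of 1217). The Tert-/- peak, at 15498 to 15812, scored 2.62 (p-value 0.00444, rank 7 of 837). They shared 94 bp, the longest overlap on mitochondrial DNA, although their centres were 205 bp apart. No peak of either list reached mt-Tf, the tRNA gene on the other side of the control region, and the first peaks of the map began at 94 in Tert-/- and 201 in Tert+/+.

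Of the 15 protein-coding and ribosomal RNA genes, 9 were touched in both libraries, 4 in Tert+/+ alone, 0 in Tert-/- alone and 2 in neither. Among the 9, the wider Tert-/- peaks covered a larger share of 7, and the Tert+/+ peaks covered a larger share of 2, which were mt-Rnr1 and mt-Rnr2. The 4 genes touched in Tert+/+ alone were mt-Atp8, mt-Atp6, mt-Co3 and mt-Nd3, neighbours inside the sparse stretch, with covered shares of 39.2%, 17.8%, 15.6% and 10.1%.

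**Figure D2:**
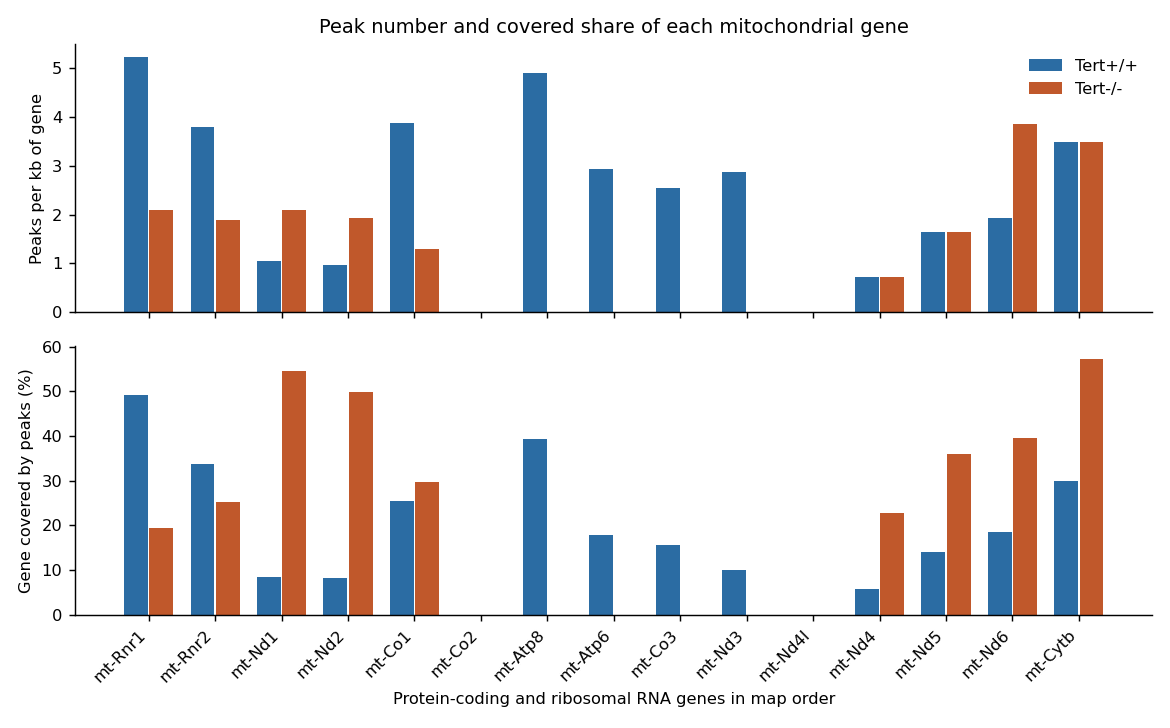
Peaks per kb of gene (top) and share of each gene covered by peaks in % (bottom) for the 15 protein-coding and ribosomal RNA genes in map order, with Tert+/+ in blue and Tert-/- in orange and 1 library each. Covered shares are higher in Tert+/+ in mt-Rnr1 and mt-Rnr2 and higher in Tert-/- in the other 7 genes with peaks in both, and mt-Co2 and mt-Nd4l have 0 peaks.

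Mitochondrial peaks ranked above most nuclear peaks of their own list. In Tert+/+ their scores ran from 1.05 to 8.21 with a median of 3.29, against a median of 1.18 over the 1181 nuclear peaks. In Tert-/- they ran from 0.954 to 3.25 with a median of 2.12, against 0.977 over 817 nuclear peaks. A p-value under 0.05 was reached by 69.4% of the mitochondrial Tert+/+ peaks (25 of 36, exact 95% interval 51.9 to 83.7) and 31.2% of the nuclear (28.5 to 33.9). In Tert-/- the shares were 70.0% (14 of 20, 45.7 to 88.1) and 3.18% (2.09 to 4.63). These exact (Clopper-Pearson) intervals cover counting error only, and peaks of 1 library are not replicates.

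By rank, the median mitochondrial peak stood at 139.5 of 1217 in Tert+/+ and at 18.5 of 837 in Tert-/-. The highest 10% of each list by score, 121 peaks in Tert+/+ and 83 in Tert-/-, held 15 and 16 mitochondrial peaks. Of the 10 highest-scoring peaks, 0 were mitochondrial in Tert+/+, where the best mitochondrial rank was 25, and 7 in Tert-/-, where it was 3. Read depth is not given in the sources used here, and its part in these ranks was not tested.

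**Figure D3:**
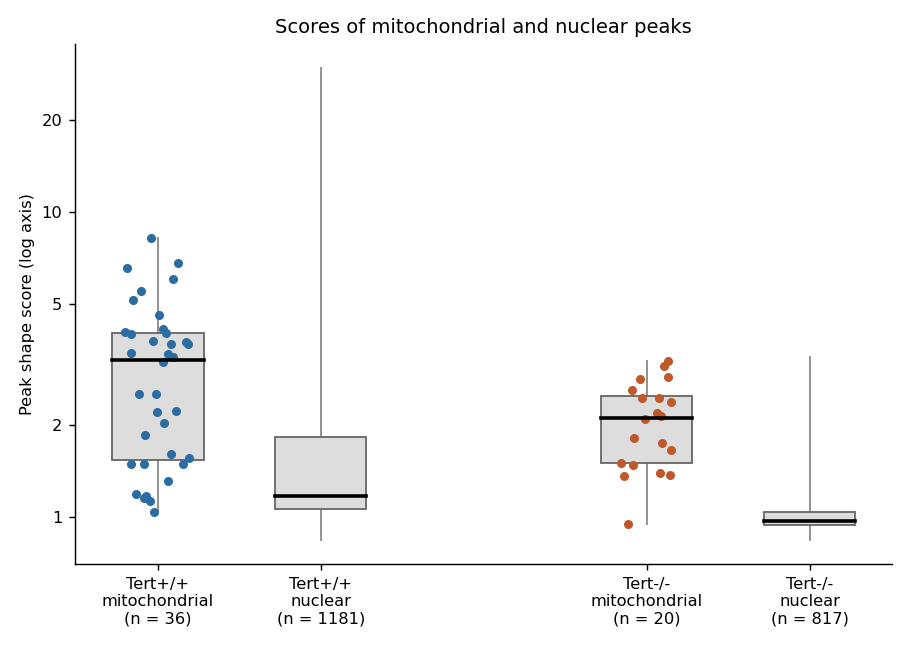
Peak shape scores (log axis) of mitochondrial and nuclear peaks in each list. Boxes span the quartiles with the median as a thick line, vertical lines the full range, and points are single mitochondrial peaks. The median mitochondrial score is 3.29 against 1.18 for nuclear peaks in Tert+/+ and 2.12 against 0.977 in Tert-/-.

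The 2 libraries rarely marked the same bases of mitochondrial DNA, even where their peaks touched. An overlap of at least 1 bp with the other list was found for 12 of 36 Tert+/+ peaks (33.3%, against 1.89% of the whole list) and 10 of 20 Tert-/- peaks (50.0%, against 2.27%). The other list's peaks covered 27.8% and 19.6% of the gene-bearing stretch. These are shares of bases and not the share of peaks expected to touch, which was not computed. The 12 overlapping pairs shared between 1 and 94 bp, with a median of 10.5 bp, and 5 of them shared fewer than 10 bp. In all, 333 bp lay in peaks of both libraries, out of 7408 bp in peaks of either. Tert+/+ peaks held 3133 bp in total and Tert-/- peaks 4608 bp.

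The deposited centres belong to the same peaks and so give no separate evidence. The centre of a Tert-/- peak lay inside a Tert+/+ peak in 0 of 20 cases, and that of a Tert+/+ peak inside a Tert-/- peak in 3 of 36. Over all peaks, the nearest centre of the other list was a median of 188 bp away from a Tert+/+ centre and 112.5 bp from a Tert-/- centre. Such distances depend on the number of peaks in the other list. They were not compared with those of unrelated positions. The 5 highest-scoring Tert+/+ peaks, in mt-Rnr2 (2385 to 2475 and 1964 to 2049), mt-Rnr1 (594 to 679 and 465 to 559) and mt-Nd5 (12675 to 12758), overlapped no Tert-/- peak. Of the 5 highest-scoring Tert-/- peaks, those of mt-Nd2, mt-Co1, mt-Nd5 and the control region met a Tert+/+ peak, over 6, 6, 30 and 94 bp, and that of mt-Nd1 did not.

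**Figure D4:**
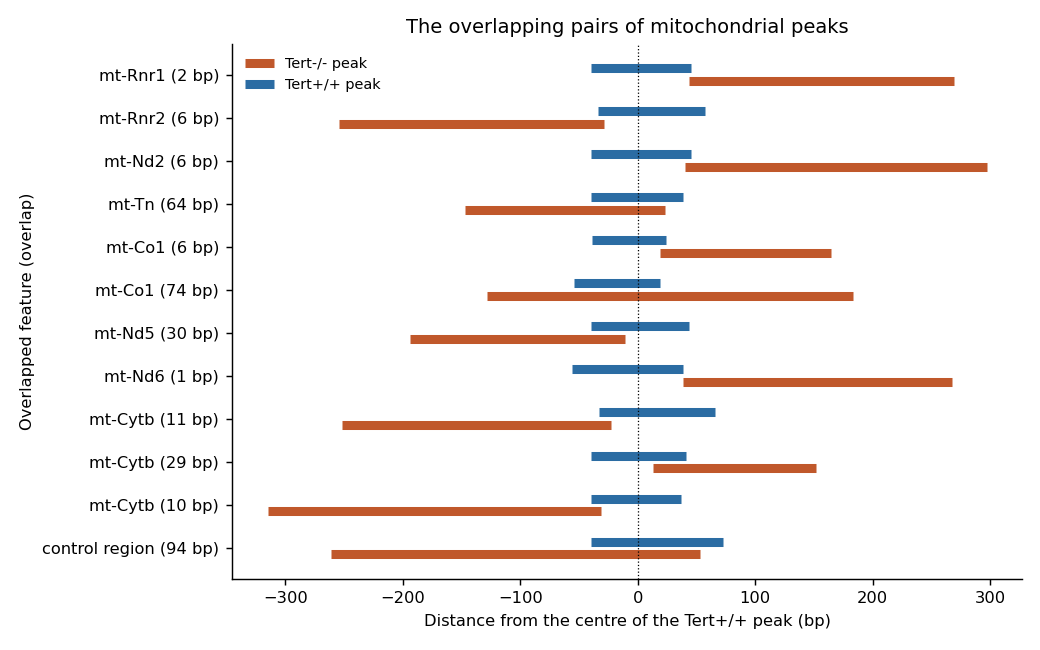
The 12 overlapping pairs of mitochondrial peaks, each row showing the Tert+/+ peak (blue) and the Tert-/- peak (orange) at their distance in bp from the centre of the Tert+/+ peak, labelled with the overlapped feature and the bp shared. Most pairs meet at their edges, and the longest overlap, 94 bp, is in the control region.

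Gene models that copy mitochondrial genes lie on chromosome 1, and the genes they copy are inside the sparse stretch. RefSeq lists there the pseudogene Gm10925 (chromosome 1, 24613971 to 24614651), with mt-Atp6 among its synonyms and the same length, 681 bp, and the pseudogene Gm10222 (24612404 to 24612700), which has the 297 bp length of mt-Nd4l. With these models as anchors, chromosome 1 runs opposite to the mitochondrial map, and the sums of paired positions were 24622578 and 24622577, 1 bp apart. Pairing Gm10222 with mt-Nd4l rests on length and this spacing, since sequences were not compared.

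The Tert+/+ list held 10 peaks in this place, from 24611816 to 24616169, between Col19a1 and Lmbrd1, and the Tert-/- list held 0. Placed on the mitochondrial map through the anchors, the 10 peaks spanned 6409 to 10762, from mt-Co1 to mt-Nd4. The placement of 4 of them lies between the anchors, and that of the other 6 extends beyond. The peak placed at 6409 to 6489 in mt-Co1 was the 1 of the 10 that fell on a mitochondrial Tert-/- peak (6181 to 6492). Of the 10, 4 fell on a mitochondrial Tert+/+ peak, in mt-Co1, at the junction of mt-Atp6 and mt-Co3, in mt-Co3 and at mt-Tr, over 78, 84, 68 and 3 bp.

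The nuclear peak of each of the first 2 scored above the mitochondrial peak it was placed on. At mt-Co1 the chromosome 1 peak, at 24615866 to 24615950, scored 7.07 (p-value 7.48e-13, rank 36), and the mitochondrial peak at 6635 to 6716 scored 4.04. This mt-Co1 placement is 1 of those beyond the anchors, and no sequence was compared there. At the junction of mt-Atp6 and mt-Co3 the scores were 3.20 (24613931 to 24614014) and 1.86 (8546 to 8647). At mt-Co3 and mt-Tr they were close, 1.24 and 1.18, and 1.16 and 1.49. Mitochondrial peaks that reached into 6409 to 10762 numbered 5 in Tert+/+ and 1 in Tert-/-, while the rest of mitochondrial DNA held 31 and 19. The handling of reads that match both places is not given in the sources used here. Their part in the sparse stretch, or in the peaks on chromosome 1, was not tested.

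**Figure D5:**
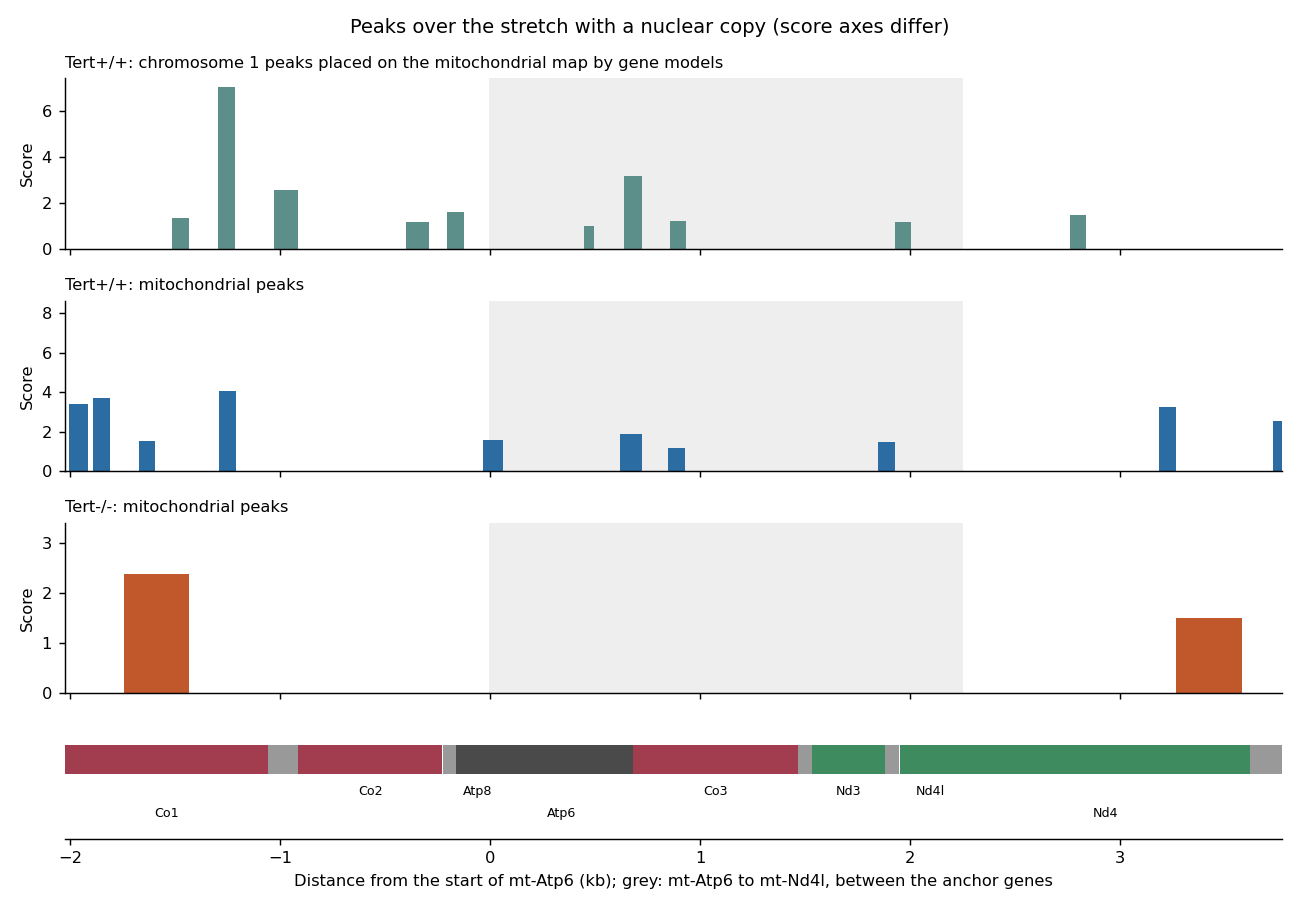
Peaks around the sparse stretch, with distance from the start of mt-Atp6 in kb on the horizontal axis and the authors' peak shape score on the vertical axes. The top panel shows the 10 Tert+/+ peaks of chromosome 1 placed by the gene models, the next panels the mitochondrial peaks of Tert+/+ and Tert-/-, and the grey band runs between the anchor genes. Within the band lie or reach 4 mitochondrial Tert+/+ peaks with scores from 1.18 to 1.86 and 0 Tert-/- peaks.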

How the data were processed

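A commercial kit and 14 cycles of PCR gave the libraries, per the labels' protocols. The submitters' processing notes name mm10 as the build. Aligner, peak caller, control library, duplicate removal and read depth are not given in the sources used here. The authors deposited 1 peak list per library, with region, width, a peak shape score of no fixed range and a p-value, per the file headers. The deposited p-value matched the upper normal tail at the score within 1e-06 in every peak and is not adjusted for multiple testing.

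From these lists all peaks on MT were taken. They were assigned to the 37 mitochondrial genes of RefSeq GRCm38.p6. All 89 deposited gene distances on MT equalled those computed from these extents. A gene counted as touched from 1 bp, and peaks as overlapping from 1 bp. Nuclear density used the span between first and last RefSeq gene of each chromosome, 2703 Mb in all. The length of the mitochondrial chromosome was not used here, so coverage refers to positions 1 to 15422. The overlap step was tested on simulated intervals. Python 3.11.15, pandas 2.3.3, numpy 2.4.6 and scipy 1.17.1 were used.

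No test was made, as each genotype has 1 library. Full values were set by rule for the rRNA genes, mt-Nd1, mt-Nd2, mt-Co1, mt-Nd5, mt-Cytb, the control region and the 5 highest-scoring peaks per library. The members and gene groups were chosen with earlier results of these data known. The stretch from mt-Nd1 to mt-Co1 and the placement of the chromosome 1 peaks were chosen with their values in view. The alternatives changed the p-value limit, the overlap required, the merging of close peaks and the gene assignment.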

Additional observations from a re-analysis of the deposited data

How the results depend on the processing

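Of 32 alternative values of the main results, 16 stayed near the value reported, including the number of protein-coding and ribosomal RNA genes touched, the median score and the median width in both libraries. With p-values under 0.01, 21 Tert+/+ and 8 Tert-/- peaks were left. The mitochondrial share of the list rose from 2.96% to 6.36% (p-value under 0.05) and 9.33% (under 0.01) in Tert+/+, and from 2.39% to 35% and 61.5% in Tert-/-. Coverage fell to 13.5% and 11.1% in Tert+/+ and to 19.8% and 10.2% in Tert-/-, as fewer peaks were kept, so that at p-values under 0.01 Tert+/+ covered more than Tert-/-, the reverse of all peaks. For shared positions, with an overlap of at least 50% of the shorter peak, 3 Tert+/+ and 3 Tert-/- peaks were shared, with midpoints at most 250 bp apart 23 and 17, and with p-values under 0.05 in both lists 4 and 4. Among single genes, 17 of 90 alternative counts moved by over 1.5 times or to 0. Some outcomes were fixed in advance, so this tally is not a measure of robustness. By the authors' gene columns, which name only the 13 protein-coding genes, mt-Rnr1 and mt-Rnr2 could only count 0. Genes with 0 peaks could only stay at 0. Leaving out peaks that reach into mt-Atp6 to mt-Nd4l, an alternative chosen after seeing the data, left 32 and 20 peaks. No paired analysis was possible because each genotype has 1 library and no test was made. Without read counts, depth limits what the scores and peak numbers can show in both libraries.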
